A study of Mus musculus with 6 samples.

Results

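The genes described here are mesenchymal markers, collagens and other extracellular matrix genes: 38 genes listed by symbol, of which 36 were measured among the 18193 genes that had a probe set of their own. Each was read on the brightest of its probe sets over the 6 arrays, and 26 of the 36 had more than 1 probe set. Fbn1 is not analysed here, and both probe sets that carry Loxl2 also carry another gene's symbol and were not used. The arrays profiled cultured primary keratinocytes of newborn C57BL6/FVB mice, with 100 nM sodium selenite in all media of both groups. In the knockouts Gpx4, an enzyme that reduces lipid hydroperoxides, had been deleted by a cre under the keratinocyte promoter K14, so a cell without K14 activity would keep the gene. Each array held the RNA of pooled cells, 1 control pool and 1 Gpx4 KO pool for each litter (A, B, C) and so 3 arrays a group. The sources used here do not give whether control mice carried the cre or an unrecombined allele.

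Collagens are secreted as trimers. Collagens I, III and V build the fibrils of the dermis, collagen VI forms beaded filaments around cells, and collagens IV and XVIII with the nidogens lie in the basement membrane between epidermis and dermis. Dermal fibroblasts make most of the fibrillar matrix, whereas keratinocytes in culture make laminins, fibronectin, thrombospondin 1, tenascin C and basement membrane components. If the share of fibroblasts in a culture differs, the transcripts that fibroblasts alone make differ by a common factor, and those that keratinocytes also make need not.

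The upstream sequences of 5 genes are shown because Sparc and Cspg4 are the members past the test that have a promoter window, and Vim, Col1a2 and Col6a1 belong to the members that varied together across arrays. They come from RefSeq promoter windows on build GRCm38.p6, in which 24 of the 38 genes had an entry. Each sequence holds the 250 bases before an annotated transcript start, and capitals mark matches to the motifs searched on both strands. These were the TATA box TATAAA, the CCAAT box, the AP-1 element TGACTCA and the E-box CAGGTG.
Sparc (chr11:55420081-55420330, minus strand): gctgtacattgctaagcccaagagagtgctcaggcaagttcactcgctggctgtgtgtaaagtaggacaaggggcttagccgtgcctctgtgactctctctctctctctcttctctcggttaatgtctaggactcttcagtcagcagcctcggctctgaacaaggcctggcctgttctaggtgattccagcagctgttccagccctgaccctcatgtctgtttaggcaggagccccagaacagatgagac
Cspg4 (chr9:56864854-56865103, plus strand): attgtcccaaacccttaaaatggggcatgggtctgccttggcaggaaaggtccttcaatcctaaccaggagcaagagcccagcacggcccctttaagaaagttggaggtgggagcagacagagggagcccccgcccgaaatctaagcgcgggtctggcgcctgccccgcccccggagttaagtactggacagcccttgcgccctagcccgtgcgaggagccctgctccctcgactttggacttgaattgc
Vim (chr2:13574061-13574310, plus strand): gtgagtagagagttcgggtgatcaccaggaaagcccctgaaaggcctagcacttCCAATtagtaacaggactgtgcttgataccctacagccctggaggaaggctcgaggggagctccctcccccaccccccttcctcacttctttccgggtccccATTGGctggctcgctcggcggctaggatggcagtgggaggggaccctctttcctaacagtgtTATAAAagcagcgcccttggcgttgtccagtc
Col1a2 (chr6:4505368-4505617, plus strand): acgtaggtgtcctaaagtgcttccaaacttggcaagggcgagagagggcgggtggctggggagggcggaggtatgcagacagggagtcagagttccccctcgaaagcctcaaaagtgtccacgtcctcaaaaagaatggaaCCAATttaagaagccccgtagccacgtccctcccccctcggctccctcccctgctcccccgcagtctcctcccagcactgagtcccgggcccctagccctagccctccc
Col6a1 (chr10:76726045-76726294, minus strand): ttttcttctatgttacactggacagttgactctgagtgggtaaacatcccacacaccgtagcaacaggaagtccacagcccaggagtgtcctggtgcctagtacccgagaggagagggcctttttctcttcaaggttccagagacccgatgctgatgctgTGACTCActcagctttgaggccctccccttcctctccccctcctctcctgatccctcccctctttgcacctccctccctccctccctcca

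The Vim window held a TATAAA that begins 32 bases before the transcript start and 2 CCAAT matches, 1 on each strand. The Col1a2 window held a CCAAT that begins 109 bases before the start, and the Col6a1 window a TGACTCA that begins 90 bases before it. The windows of Sparc and Cspg4 held none of the 4 motifs. Over the 24 genes with a window, TATAAA occurred in 6, CCAAT in 9, TGACTCA in 1 and CAGGTG in 0. Of all 32851 windows of the same length 12.4% held TATAAA, 33.8% CCAAT, 4.46% TGACTCA and 17.2% CAGGTG. These shares are per window, whereas a gene with more than 1 window was counted if any of them held the motif. The matches describe the sequence and were not tested for binding. Col4a1 and Col4a2 lie head to head on chromosome 8 with annotated transcript starts that overlap by 22 bases, on opposite strands.

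With 3 pools a group, precision is set by the number of arrays. Levels below are quantile-normalized intensities, and a log2 change is knockout minus control with its standard error from limma, on log2(intensity + 16) with litter as a block. That scale understates the change of dim genes, and levels of different genes were not compared. Gpx4 itself fell, from levels of 497, 551 and 536 in controls A, B and C to 212, 260 and 216 in the matching knockouts (log2 change -1.15 ± 0.091, limma adjusted p = 0.0206). Its dimmer probe set gave -1.40 ± 0.21 and did not pass (limma adjusted p = 0.0630). The deleted part of the gene is not stated, so where the probes lie relative to it is unknown. The keratinocyte genes Krt5 and Krt14 lay between 6278 and 7049 on all 6 arrays, near the highest deposited intensities of the arrays (7257 to 9551), and 11 of the 15 keratinocyte genes had a negative change, as given with the other cell types. The sexes in the pools differed with genotype: Xist lay between 389 and 536 in controls and between 1214 and 1260 in knockouts, and the Y-linked Eif2s3y between 155 and 185 in controls and between 0.667 and 4.62 in knockouts. Sex and genotype cannot be told apart in any value below.

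3 members rose and Cspg4 fell past the test over all 45037 probe sets. The change of 24 of the 36 members was nearer to 0 in litter C than in litters A and B. For this count of 24 the share over all probe sets was not computed. The members that rose were Thbs1, Col5a2 and Sparc, which is 3 of 36, against 0.158% of all probe sets, and 1 of 36 fell, against 0.262%. The log2 change was positive in 26 of 36 members, and its median was 0.44 against 0.0018 over all probe sets. Of the 36, 19 were higher in the knockout of all 3 litters (18.1% of all probe sets were) and 5 were lower in all 3 (18.3%), and 12 were mixed. In 4 members all knockouts lay above all controls (8.79% of all probe sets) and in 5 all lay below (9.43%). At an unadjusted p under 0.05, 16 members were higher and 5 lower, against 7.06% and 7.58% of all probe sets. By litter, the median of the members was 0.56 (A), 0.80 (B) and 0.13 (C). In these bulk cultures fewer cells of a type and less RNA per cell cannot be told apart.

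**Figure D1:**
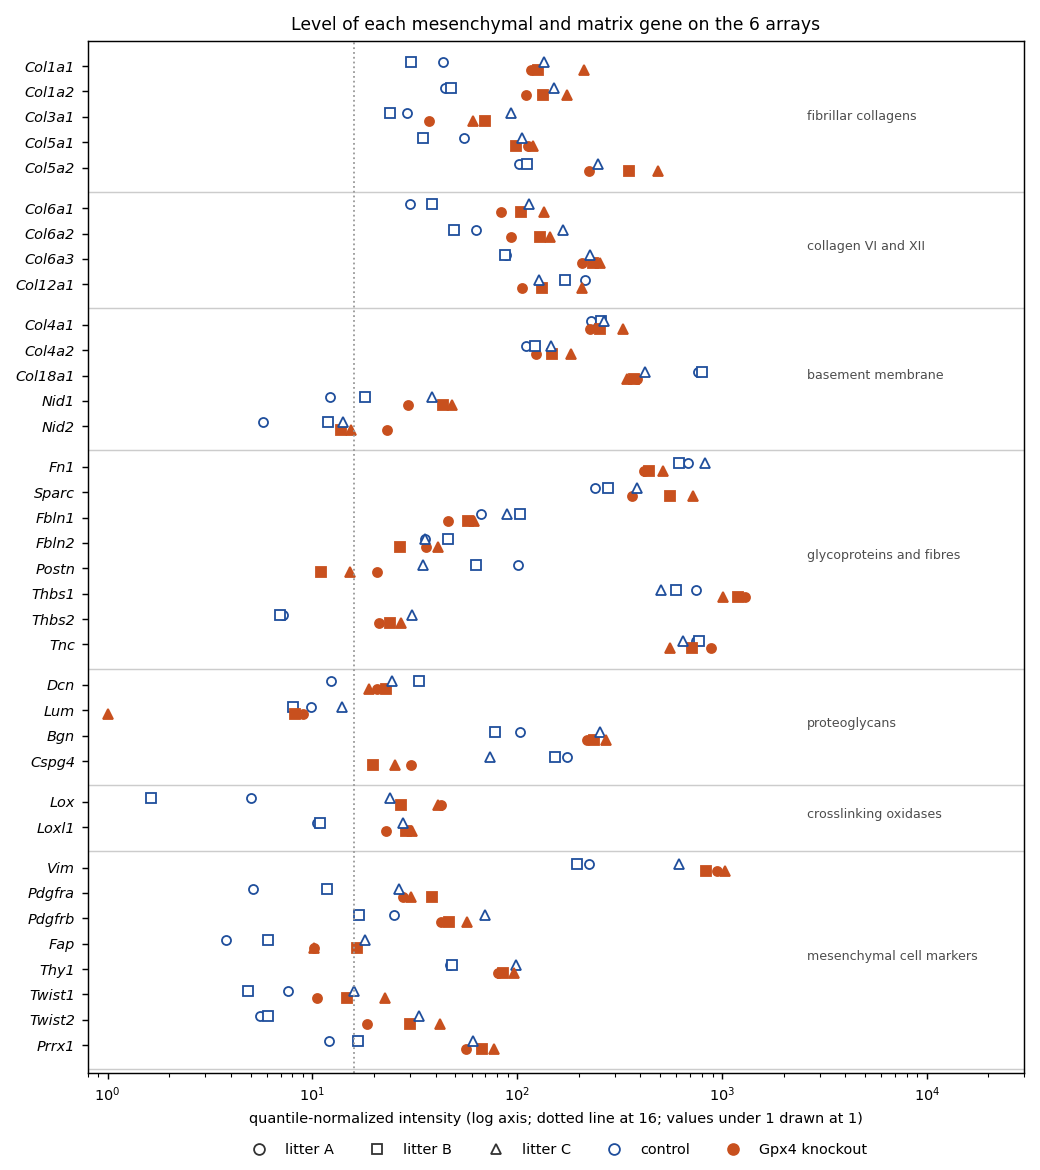
Quantile-normalized intensity (log axis) of the 36 measured genes on the 6 arrays, grouped by role, with controls as open blue and Gpx4 knockouts as filled orange symbols and the litter as the symbol's shape. The control of litter C sits beside the knockouts for the fibrillar and type VI collagens, while Thbs1 separates the genotypes in every litter.

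Thbs1, a secreted glycoprotein that binds matrix and cell receptors and can activate latent TGF-beta, read 744, 598 and 505 in controls A, B and C and 1292, 1202 and 1013 in knockouts A, B and C. All knockouts lay above all controls. The log2 change was 0.92 ± 0.083 (limma adjusted p = 0.0249), with 0.78, 0.99 and 0.98 in the 3 litters. Its other probe set also passed, at 0.91 ± 0.093 (limma adjusted p = 0.0339).

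Sparc, a matricellular glycoprotein that binds collagen, read 240, 277 and 387 in controls and 365, 557 and 719 in knockouts. The groups overlapped, because the control of litter C exceeded the knockout of litter A, but each knockout exceeded the control of its litter. The log2 change was 0.80 ± 0.11 (limma adjusted p = 0.0485), and by litter it was 0.57, 0.97 and 0.87. A dimmer probe set of Sparc gave 0.78 ± 0.17 and did not pass (limma adjusted p = 0.122).

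Col5a2, a chain of the fibril-initiating collagen V, read 102, 112 and 249 in controls and 226, 352 and 487 in knockouts. The control of litter C lay above the knockout of litter A, so the groups overlapped. The log2 change was 1.16 ± 0.14 (limma adjusted p = 0.0394), with 1.04, 1.52 and 0.92 in the litters. Its dimmer probe set gave 0.57 ± 0.19 (limma adjusted p = 0.255), with 0.085 in litter A.

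Cspg4, the membrane proteoglycan NG2 of pericytes and of some epidermal stem cells, read 176, 153 and 73.6 in controls and 30.3, 19.9 and 25.3 in knockouts. All knockouts lay below all controls, and the control of litter C was the lowest control. The log2 change was -1.80 ± 0.23 (limma adjusted p = 0.0452), and its other probe set passed at -1.25 ± 0.15 (limma adjusted p = 0.042). Over the 16 alternative analyses Thbs1 passed in 5, Col5a2 in 5, Sparc in 3 and Cspg4 in 6, each with the same direction in all 16. Scaled as deposited, Thbs1 (0.75, limma adjusted p = 0.365), Col5a2 (0.95, 0.297) and Sparc (0.61, 0.469) did not pass. Without the litter block none of the 36 passed in limma (0.133% of all probe sets passed as higher and 0.167% as lower), with 11 higher and 5 lower at an unadjusted p under 0.05.

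**Figure D2:**
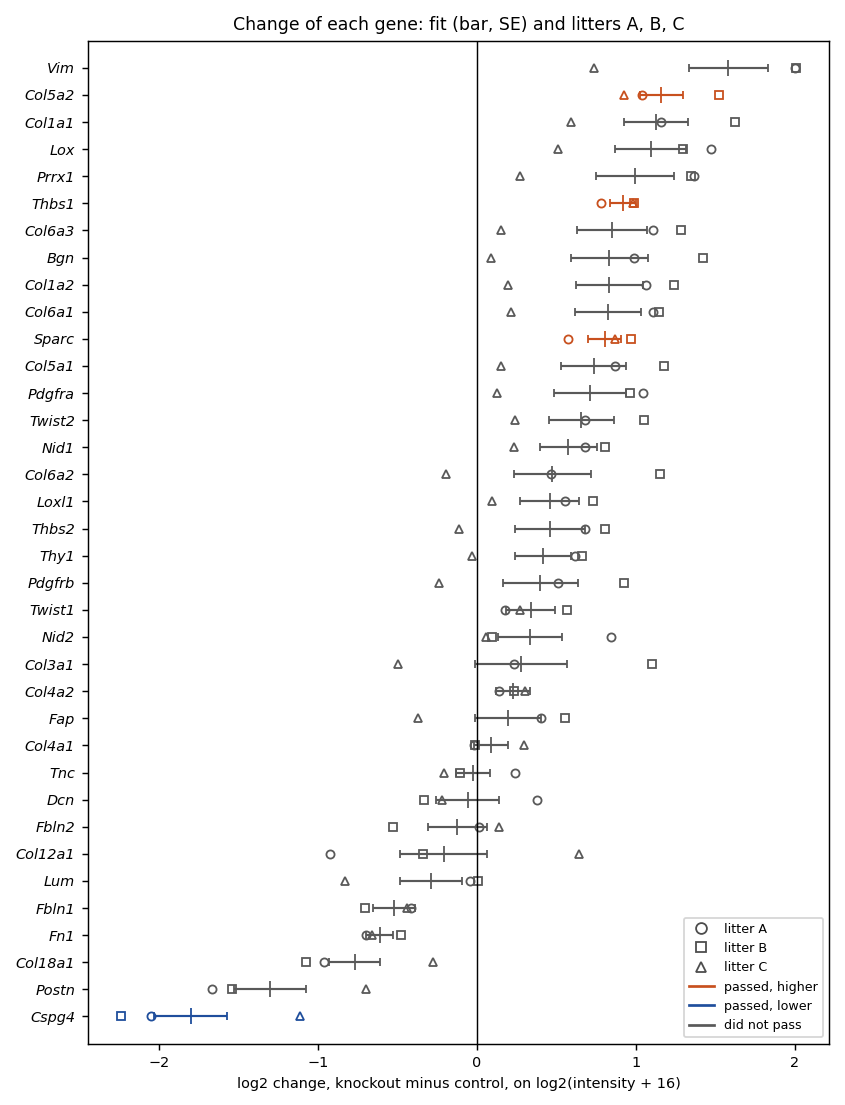
Log2 change of each of the 36 genes, knockout minus control on log2(intensity + 16), with the limma estimate as a bar, its standard error as whiskers and the 3 litters as symbols. Litter C lies nearer to 0 than litters A and B for 24 of the 36 genes, a count not computed over all probe sets. On the probe sets drawn, the 3 litters lie close together for Thbs1, Fn1 and Fbln1, and also for Col4a1 and Col4a2, among others. For Sparc they run from 0.57 to 0.97.

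Beside Col5a2, no fibrillar collagen passed. Col1a1, the main chain of the dermal collagen I, read 43.6, 30.4 and 135 in controls and 117, 127 and 212 in knockouts, a log2 change of 1.12 ± 0.20 (limma adjusted p = 0.0831). The other chain, Col1a2, read 44.4, 47.5 and 151 in controls and 110, 134 and 175 in knockouts (0.83 ± 0.21, limma adjusted p = 0.157). On these probe sets the controls of litters A and B were low for both chains, and the control of litter C lay among the knockouts. The other Col1a1 probe set read 23.9, 24.8 and 58.8 in controls and 80.3, 82.2 and 96.2 in knockouts (1.04 ± 0.18, limma adjusted p = 0.0816). There control C lay below all knockouts. A dimmer Col1a2 probe set kept control C (88.9) among the knockouts (58.2, 72.5 and 102). Col5a1 read 54.9, 34.6 and 105 in controls and 113, 98.5 and 119 in knockouts (0.73 ± 0.21, limma adjusted p = 0.186). Col3a1, the partner of collagen I in dermal fibrils, read 29.1, 23.9 and 92.9 in controls and 37.0, 69.4 and 61.2 in knockouts (0.28 ± 0.29, limma adjusted p = 0.722). Its change was 0.23, 1.10 and -0.50 in litters A, B and C, so the collagen III transcript did not have the sign of collagen I in litter C.

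The collagen VI chains were also low in controls A and B. Col6a1 read 30.2, 38.6 and 114 in controls and 83.5, 105 and 135 in knockouts (0.82 ± 0.21, limma adjusted p = 0.154). Col6a3, the chain with the longest extension, read 88.0, 86.9 and 228 in controls and 208, 235 and 255 in knockouts (0.85 ± 0.22, limma adjusted p = 0.163). Col6a2 read 62.8, 49.3 and 167 in controls and 93.0, 129 and 144 in knockouts (0.47 ± 0.24, limma adjusted p = 0.435), so control C lay above all knockouts. The other probe set of Col6a2 read 80.8, 53.5 and 77.3 in controls and 81.3, 95.7 and 115 in knockouts (0.39 ± 0.16, limma adjusted p = 0.338), with all knockouts above all controls and control C not apart. Col12a1, a fibril-associated collagen, was arranged otherwise: it read 215, 172 and 128 in controls and 106, 133 and 208 in knockouts. Its change was -0.93, -0.34 and 0.64 in litters A, B and C (-0.21 ± 0.27, limma adjusted p = 0.787), so its sign turned between litters.

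The control array of litter C stood apart from the other controls for many members. It lay more than 1 log2 unit above the mean of controls A and B for 15 of the 36 members, against 0.866% of all probe sets, and more than 1 below it for Cspg4 alone, against 0.713%. The 15 were Col1a1, Col1a2, Col3a1, Col5a1, Col5a2, Col6a1, Col6a2, Col6a3, Thbs2, Bgn, Lox, Vim, Pdgfrb, Twist2 and Prrx1, with differences between 1.02 and 1.52. Among the knockouts the same subtraction, litter C minus litters A and B, stayed within 1 for all 36 members and had a median of 0.26 over the 15. In 13 of the 15 the control of litter C was at or above the lowest knockout. In 15 of 15 all knockouts lay above the controls of litters A and B, which 17.9% of all probe sets did, but this uses the same 2 controls that picked the 15. Their median change was 1.04, 1.24 and 0.20 in litters A, B and C. For the 20 members whose litter C control lay within 1 of the other controls it was 0.21, 0.052 and 0.077. The litter changes and the count of 13 also use the controls that picked the 15. The smaller change in litter C is therefore partly built into the choice. These counts are of the brightest probe sets. Of the 9 other probe sets of these genes with a mean of 32 or more, from 7 genes, 5 had control C more than 1 above controls A and B, and those of Col1a1, Col5a1, Col5a2 and Col6a2 did not. These members were set apart by the control arrays and were not tested as a group.

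Leaving out this array changed the counts. Without control C and without the block 15 of the 36 passed as higher and 4 as lower, against 2.52% and 2.87% of all probe sets. Without both arrays of litter C, block kept, 13 passed as higher and 4 as lower, against 3.01% and 3.15%. Among the 13 were Col1a1 (1.39, limma adjusted p = 0.0063) and Vim (2.00, limma adjusted p = 0.000232). With all arrays neither passed (limma adjusted p = 0.0831 and 0.0682). Control C was high for both genes, so their larger change without litter C follows from leaving it out. Only litters A and B remain in that fit. The 4 lower both without control C and without litter C were Col18a1, Fn1, Postn and Cspg4. Without litter A, or without litter B, limma passed none of the 36. Of all probe sets 1 passed as higher and 2 as lower without litter A, and 0 and 0 without litter B. So few passed in these fits that the absence of members does not set the members apart. At an unadjusted p under 0.05, 12 members were higher and 5 lower without litter A, and 10 and 4 without litter B.

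**Figure D3:**
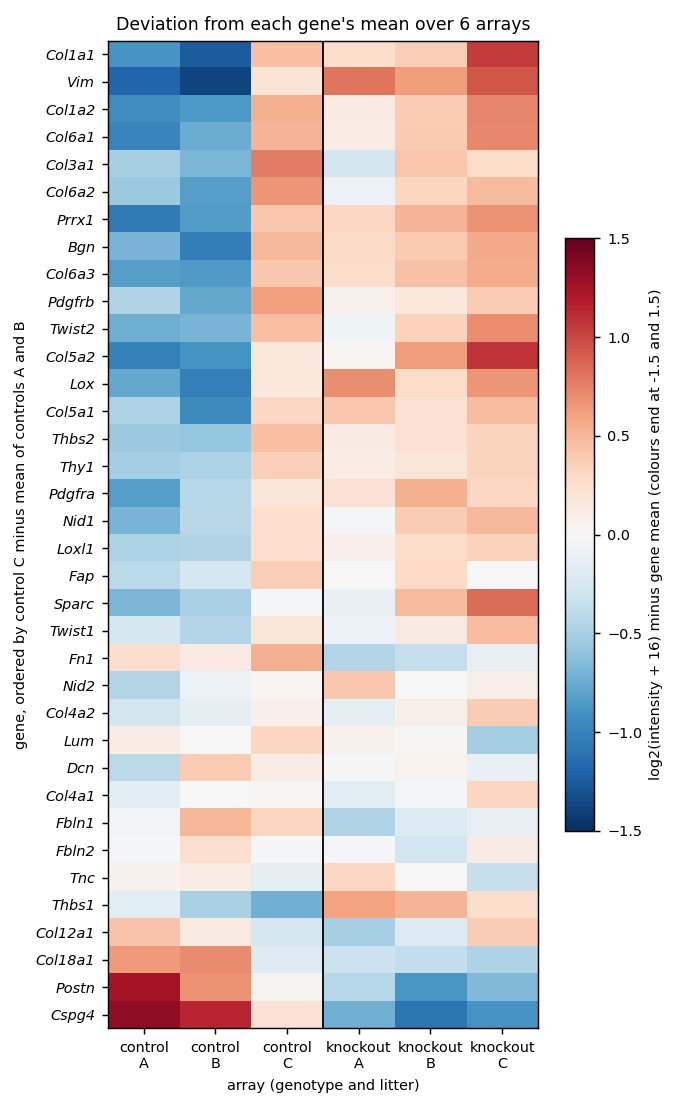
Log2(intensity + 16) of each of the 36 genes on each array minus that gene's mean over the 6 arrays, with genes ordered by how far the control of litter C lay from the other controls. From Col1a1 down to Fap, controls A and B are the lowest columns and control C resembles the knockouts, while near the bottom control C lies nearest the knockouts for Col18a1, Postn and Cspg4, which are lower there, and furthest from them for Thbs1.

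Vim, the intermediate filament of mesenchymal cells and of melanocytes, had the highest log2 change of the members. It read 225, 196 and 616 in controls and 947, 836 and 1038 in knockouts. All knockouts lay above all controls, and control C was the highest control. The log2 change of 1.58 ± 0.25 did not pass (limma adjusted p = 0.0682), with 2.00, 2.00 and 0.74 in the litters. Its 2 dimmer probe sets gave 1.47 ± 0.31 and 1.46 ± 0.26.

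Prrx1, a homeobox factor of dermal fibroblasts, read 12.0, 16.6 and 61.1 in controls and 56.1, 67.1 and 76.9 in knockouts (0.99 ± 0.25, limma adjusted p = 0.151). Pdgfra, the PDGF receptor of fibroblasts, read 5.13, 11.8 and 26.6 in controls and 27.6, 38.3 and 30.4 in knockouts (0.71 ± 0.23, limma adjusted p = 0.229). Its controls A and B were under the 16 added before the logarithm, and about 48.3% of all normalized values were under 16. Pdgfrb, the receptor of pericytes, read 25.1, 16.9 and 70.1 in controls and 42.4, 46.5 and 56.9 in knockouts (0.40 ± 0.24, limma adjusted p = 0.503). For Pdgfrb the control of litter C was the highest array of all 6.

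Thy1, a surface glycoprotein used to sort fibroblasts, read 46.9, 48.3 and 98.7 in controls and 80.3, 85.8 and 96.4 in knockouts (0.42 ± 0.17, limma adjusted p = 0.344). The bHLH factors Twist1 and Twist2 were dim: Twist1 lay between 4.84 and 16.1 in controls and between 10.6 and 22.7 in knockouts (0.34 ± 0.15, limma adjusted p = 0.382). Twist2 lay between 5.55 and 33.2 in controls and between 18.5 and 42.1 in knockouts (0.66 ± 0.20, limma adjusted p = 0.218). Fap, a protease of activated fibroblasts, lay between 3.80 and 18 in controls and between 10.1 and 16.5 in knockouts (0.19 ± 0.21, limma adjusted p = 0.729). None of the 8 cell markers passed, and all 8 had a positive change, with a median of 0.54.

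None of the 5 basement membrane genes passed, and their median log2 change was 0.23. Col4a1 read 231, 256 and 264 in controls and 227, 254 and 328 in knockouts (0.087 ± 0.11, 95% interval -0.17 to 0.34, limma adjusted p = 0.770). Col4a2, its head-to-head neighbour, read 110, 123 and 146 in controls and 123, 147 and 184 in knockouts (0.23 ± 0.11, 95% interval -0.029 to 0.48, limma adjusted p = 0.392). In both chains litter C had the highest array in each group. The sign of Col4a1 held in 12 of the 16 alternatives.

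Col18a1, which carries the anti-angiogenic fragment endostatin, read 763, 802 and 422 in controls and 384, 373 and 346 in knockouts. All knockouts lay below all controls, and control C again lay nearest to them. The log2 change was -0.77 ± 0.16 (limma adjusted p = 0.110), and its other probe set gave -0.71 ± 0.19. Nid1, which links laminin to collagen IV, read 12.3, 18.1 and 38.5 in controls and 29.2, 43.6 and 48.2 in knockouts (0.57 ± 0.18, limma adjusted p = 0.226). Nid2 lay between 5.73 and 14.2 in controls and between 13.8 and 23.0 in knockouts (0.33 ± 0.20, limma adjusted p = 0.513).

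In 3 of the 8 measured glycoproteins, Fn1, Fbln1 and Postn, all knockouts lay below all controls on the brightest probe set. Over all probe sets 9.43% did so. None of the 3 passed the test, while Thbs1 and Sparc rose. Fn1, the fibronectin on which cells migrate and other matrix assembles, read 683, 619 and 828 in controls and 414, 439 and 518 in knockouts. All knockouts lay below all controls, with a change of -0.70, -0.48 and -0.66 in the litters. The log2 change of -0.61 ± 0.087 missed the threshold (limma adjusted p = 0.0552). A dim probe set of Fn1 gave -0.12 ± 0.23. Control C was the highest array for Fn1, so its direction was opposite to that of the collagens I and VI while control C stood on the same side.

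Postn, the matricellular protein periostin, read 101, 62.6 and 34.7 in controls and 20.7, 11.0 and 15.2 in knockouts. All knockouts lay below all controls (-1.30 ± 0.23, limma adjusted p = 0.0803). Periostin is known as a product of activated fibroblasts. Fbln1, a fibulin of elastic fibres and basement membranes, read 66.4, 104 and 89.5 in controls and 45.8, 57.3 and 61.8 in knockouts (-0.52 ± 0.13, limma adjusted p = 0.160). All knockouts lay below all controls on this probe set, and control C was not at the edge of its group. The dimmer probe sets of Fbln1 gave -0.21 ± 0.17 and 0.071 ± 0.18, and on both the groups overlapped. Fbln2 lay between 35.5 and 45.8 in controls and between 26.9 and 41.0 in knockouts (-0.12 ± 0.19, limma adjusted p = 0.816).

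Tnc, the tenascin of wound edges, read 750, 774 and 646 in controls and 888, 717 and 558 in knockouts (-0.025 ± 0.11, 95% interval -0.28 to 0.23, limma adjusted p = 0.947). Its change was 0.24, -0.11 and -0.21 in the litters, and its sign held in 10 of the 16 alternatives. Thbs2, the fibroblast relative of Thbs1, read 7.22, 6.92 and 30.7 in controls and 21.1, 24.0 and 27.2 in knockouts (0.46 ± 0.22, limma adjusted p = 0.407). Unlike Thbs1, which was lowest in control C among all 6 arrays, Thbs2 was highest there.

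Beside Cspg4 no proteoglycan passed. Bgn, biglycan, read 103, 78.0 and 253 in controls and 220, 236 and 271 in knockouts (0.83 ± 0.24, limma adjusted p = 0.195), and its 2 other probe sets gave 0.71 ± 0.26 and 0.98 ± 0.26. Dcn, decorin, which binds collagen fibrils and is abundant in dermal fibroblasts, read 12.4, 33.0 and 24.6 in controls and 20.8, 22.9 and 18.9 in knockouts (-0.059 ± 0.20, limma adjusted p = 0.929). Lum, lumican, was under 16 on all 6 arrays, between 8.07 and 14.0 in controls and between 0.883 and 9.05 in knockouts (-0.29 ± 0.19, limma adjusted p = 0.557). For Dcn the highest array was control B, not control C.

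Lox, the oxidase that starts crosslinking of collagen and elastin, read 5.03, 1.63 and 23.9 in controls and 42.4, 27.2 and 40.9 in knockouts. All knockouts lay above all controls, with a log2 change of 1.09 ± 0.23 (limma adjusted p = 0.109). A dimmer probe set gave 1.03 ± 0.18 (limma adjusted p = 0.0816). Loxl1 read 10.5, 10.9 and 27.8 in controls and 22.8, 28.5 and 30.8 in knockouts (0.46 ± 0.19, limma adjusted p = 0.333). Of the 16 other member probe sets with a mean intensity of 32 or more, 15 had the sign of the brightest probe set of their gene.

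Of the 33 fibroblast genes measured outside the module none passed in limma, 16 had a positive change, and 14 were under 16 on all arrays, among them the dermal fibroblast genes Mfap4, Mfap5, Dpt and Pi16. Their median log2 change was -0.015, and by litter it was 0.12 (A), 0.023 (B) and -0.029 (C). Their summed level lay between 1799 and 1921 in controls and between 1765 and 2020 in knockouts. Cdh11, a cadherin of mesenchymal cells, was arranged like collagen I: it read 63.1, 68.3 and 302 in controls and 285, 328 and 353 in knockouts (1.39 ± 0.34, limma adjusted p = 0.15). Serpinf1, a secreted serpin, read 40.3, 40 and 99.6 in controls and 95.1, 115 and 153 in knockouts (0.92 ± 0.16, limma adjusted p = 0.082). The bright Fstl1 (-0.39 ± 0.15), Col8a1 (-0.23 ± 0.23) and Gpx8 (-0.14 ± 0.12) had negative changes.

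To set each member against that list, the mean log2 level of its 9 genes with an intensity of 32 or more was subtracted from every array before the fit. This index was higher in the knockout by 0.17, 0.18 and 0.12 in litters A, B and C, and 4 of its 9 genes were higher and 5 lower. Cdh11 had the largest change of the 9, and without it the mean change of the index was 0.0049, with -0.047 (A), -0.046 (B) and 0.11 (C). Relative to the index, Thbs1 (0.76 ± 0.089, limma adjusted p = 0.0132), Vim (1.42 ± 0.22, 0.0296), Sparc (0.64 ± 0.11, 0.0356), Col5a2 (1.00 ± 0.13, 0.0186) and Col1a1 (0.96 ± 0.19, 0.0473) were higher, against 0.375% of all probe sets. Fn1 (-0.77 ± 0.089, limma adjusted p = 0.0132), Cspg4 (-1.96 ± 0.23, 0.0143), Postn (-1.46 ± 0.23, 0.0284) and Col18a1 (-0.93 ± 0.16, 0.0386) were lower, against 2.3%. The other 27 members did not pass. Because the 9 index genes changed in both directions, the index is not a measure of the share of fibroblasts. With Cdh11 left out of the index, a choice made after seeing the data, 6 were higher (Lox added, 1.09 ± 0.23, limma adjusted p = 0.0442) and the same 4 lower, against 0.826% and 1.23% of all probe sets. With the median of the 9 genes as the index, 5 were higher and 12 lower. For that index the share over all probe sets was not computed, so its counts have no background.

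Markers of other cells were measured beside the module. Melanocyte genes had a positive change in 10 of 10, with a median of 0.44 and a summed level of 4714 to 4888 in controls and 6561 to 7179 in knockouts. Mlana (1.11 ± 0.14, limma adjusted p = 0.0429) and the pigment enzyme Tyrp1 (0.69 ± 0.078, limma adjusted p = 0.038) rose. Melanocytes contain vimentin, and the part of these cells in the change of Vim was not tested. Endothelial genes were dim, with summed levels of 102 to 126 in controls and 110 to 125 in knockouts, 6 of 12 under 16 on all arrays and Pecam1 and Cdh5 among them. Of 13 pericyte and smooth muscle genes the actin Actg2 rose (1.5 ± 0.18, limma adjusted p = 0.0429), with a median of 0.086, and Rgs5, a pericyte marker, had -0.62 ± 0.15 (limma adjusted p = 0.146).

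Among 15 keratinocyte genes Krt10 fell (-1.42 ± 0.084, limma adjusted p = 0.00922) and the other 14 did not pass, with a median of -0.12. The change was negative in 11 of the 15. In all 3 litters 7 were lower (18.3% of all probe sets were) and 1 was higher (18.1%). In the terminal differentiation keratin Krt1 it was -1.21 ± 0.22 (limma adjusted p = 0.0836), and in Trp63, a factor of basal keratinocytes, -0.43 ± 0.076 (limma adjusted p = 0.0816). In the hemidesmosomal Col17a1 it was -0.36 ± 0.11 (limma adjusted p = 0.213). The part of these shifts in the values of the matrix genes was not tested. None passed in the leukocyte, Schwann cell, dermal papilla, adipocyte, muscle and Merkel cell lists. Their medians were 0.095 for 12 leukocyte genes, 0.30 for 7 Schwann cell genes and 0.061 for 12 dermal papilla genes. They were 0.10 for 6 adipocyte genes, 0.21 for 8 muscle genes and 0.097 for 6 Merkel cell genes. Summed levels of the leukocyte genes lay between 130 and 174 in controls and between 146 and 247 in knockouts.

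**Figure D4:**
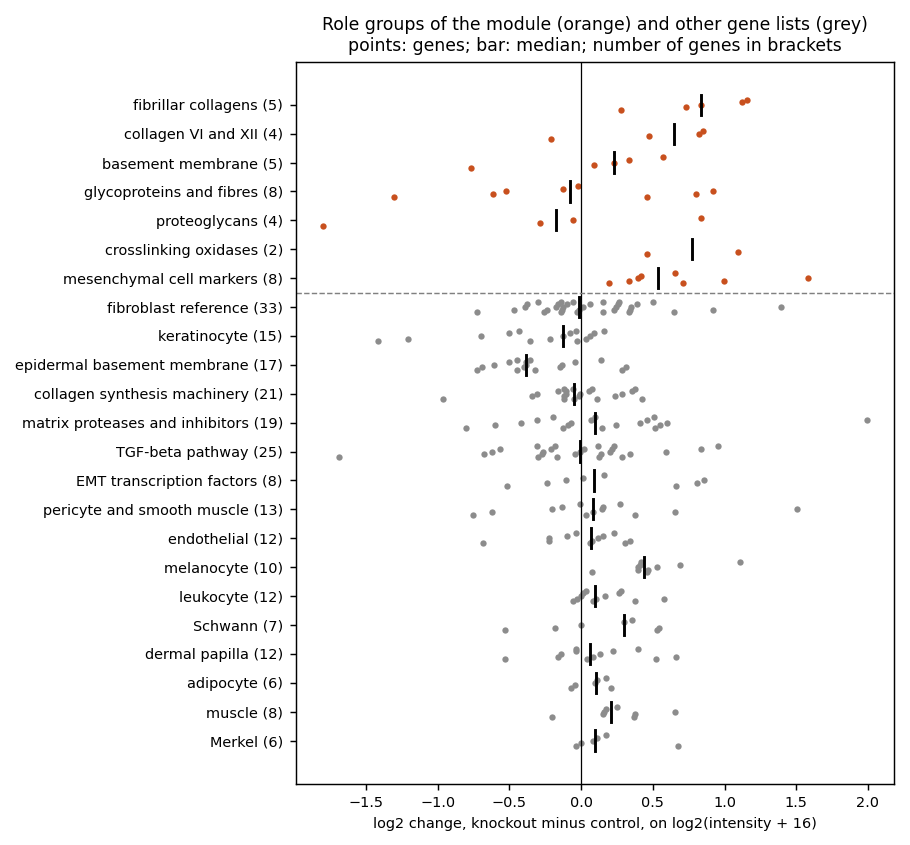
Log2 change, knockout minus control on log2(intensity + 16), of each gene in the 7 role groups of the module (orange) and in the other gene lists (grey), with the median as a bar and the number of genes in brackets. The medians of fibrillar collagens and mesenchymal cell markers are 0.83 and 0.54. Those of the glycoproteins and the proteoglycans are -0.075 and -0.17. The median of the 33 fibroblast genes outside the module is -0.015, but 14 of them were under 16 on all arrays, where this scale understates changes.

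Genes that act on the matrix were examined next. Of 25 genes of the TGF-beta pathway, a main inducer of matrix genes, the receptor Tgfbr2 rose, from 370, 398 and 438 in controls to 787, 768 and 819 in knockouts (0.95 ± 0.084, limma adjusted p = 0.0233). The other 24 did not pass, and the median was -0.0068. Tgfbi, a TGF-beta-induced matrix protein, read 2630, 2442 and 882 in controls and 631, 542 and 471 in knockouts (-1.69 ± 0.24, limma adjusted p = 0.0539). Its control C lay nearest to the knockouts, as for Col18a1, Postn and Cspg4.

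None of 21 collagen synthesis genes passed, and the median was -0.053. Bmp1, the protease that trims the procollagen C-terminus, read 186, 176 and 102 in controls and 77.8, 74.8 and 56.5 in knockouts (-0.96 ± 0.13, limma adjusted p = 0.0514). Of 17 laminins and other epidermal basement membrane genes none passed and 14 had a negative change, with a median of -0.38. Among them Agrn had -0.72 ± 0.15 (limma adjusted p = 0.110) and Col7a1, the anchoring fibril collagen, -0.69 ± 0.22 (limma adjusted p = 0.238).

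Of 19 matrix proteases and inhibitors none passed (median 0.096), and the urokinase receptor Plaur had the largest change, 1.99 ± 0.29 (limma adjusted p = 0.0607). Of 8 factors and markers of epithelial-mesenchymal transition none passed (median 0.089). S100a4 read 352, 287 and 414 in controls and 588, 508 and 582 in knockouts (0.66 ± 0.097, limma adjusted p = 0.0602). Cdh2, N-cadherin, read 9.07, 12.1 and 12.0 in controls and 25.9, 40.2 and 33.9 in knockouts (0.86 ± 0.16, limma adjusted p = 0.0893). Zeb2, a repressor of E-cadherin, had 0.81 ± 0.21 (limma adjusted p = 0.158). Tcf4 read 194, 181 and 145 in controls and 105, 123 and 120 in knockouts (-0.51 ± 0.13, limma adjusted p = 0.165). All knockouts lay above all controls for S100a4, Cdh2 and Zeb2 (8.79% of all probe sets) and below them for Tcf4 (9.43%). Of the 8 changes 5 were positive.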

How the data were processed

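RNA of 6 pools of primary mouse keratinocytes was extracted with Trizol, biotin-labelled by in vitro transcription and hybridised to 1-colour Affymetrix arrays, per the labels. The deposited values are linear intensities per probe set, as the authors processed them; the summarisation and scaling are not given in the sources used here. The trimmed mean of the deposited intensities differed up to 1.57 times between arrays, highest in control C.

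Of 45101 probe sets, 64 control probe sets were left out and 45037 were quantile-normalized, transformed as log2(intensity + 16) and fitted in limma 3.58.1 (R 4.3.3) with genotype and litter (lmFit, eBayes with trend), two-sided, with Benjamini-Hochberg adjustment over all probe sets and a threshold of 0.05. Gene names came from the platform annotation of 2016: 34945 probe sets had 1 gene, 932 had several and 9160 had none listed. A gene was read on the probe set with the highest mean. The procedure was tested on simulated data. Replicate numbers are litters in the labels, and the residuals of same-litter arrays correlated at 0.17, 0.047 and 0.21 in litters A, B and C. With 1 pool per genotype and litter, p-values of fits with the litter block rest on how the knockout minus control difference varied between litters. The block takes out the differences in level between litters, and eBayes moderates the remaining variance across probe sets.

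The members and the gene lists were chosen with earlier results of these data known. All members could be named, and of each other list up to 4 genes with the smallest p and, of the fibroblast list, the 4 brightest. The defining markers Krt5, Krt14, Pecam1, Mfap4, Mfap5, Dpt and Pi16 were named outside this rule, after their values were seen.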

Additional observations from a re-analysis of the deposited data

How the results depend on the processing

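The median log2 change of the 36 genes stayed positive under all alternatives, and leaving out arrays moved it between 0.28 and 0.76. The counts of genes past the limma threshold depended on the setting, with 3 up and 1 down as reported. Scaled as deposited, 0 rose, with 8 higher at an unadjusted p under 0.05, and 32 and 3 of all probe sets fell and rose. Shifting arrays to the same median gave 3 down, 198 and 512 of all probe sets up and down, and 12 up relative to the fibroblast index, as did the deposited scale (12). The share of calls that were higher was 37.6%, 8.57% as deposited and 27.9% with the same median. Without the replicate block 0 rose and 0 fell, with 75 probe sets down in all and 1 up relative to the index. With a pseudocount of 1, 3 fell, 271 and 330 probe sets passed up and down, and the median of the fibroblast genes outside the module was -0.14. With a pseudocount of 64, 1 rose and 0 fell, 27 and 32 probe sets passed, and 10 were higher relative to the index. Without the 40% dimmest probe sets, 6 rose, 4 fell, 521 and 609 probe sets passed, and the fibroblast median was 0.15. Averaging the probe sets of a gene, 0 rose and 0 fell (19 and 4 at an unadjusted p under 0.05), 1 was higher and 2 lower relative to the index, and Gpx4 had -1.28 (limma adjusted p = 0.0687), against -1.34 (0.122) as deposited. With the median index 12 were lower. Shares of all probe sets passing relative to the index were computed only for the main index and the index without Cdh11. The other counts relative to the index, here and below, therefore have no background.

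Leaving out single arrays, which used no replicate block, or whole litters gave 0 to 15 up and 0 to 4 down, 0 to 1354 and 0 to 1419 of all probe sets, 0 to 15 higher and 0 to 6 lower relative to the index, a fibroblast median of -0.016 to 0.087 and a Gpx4 change of -1.24 to -1.10. The highest counts came without litter C (13 up, 13 higher relative to the index, a fibroblast median of 0.075) or control C (1136 and 1294 of all probe sets). Without controls A or B, 4 and 3 of all probe sets passed up and 8 and 5 down, and Gpx4 had -1.19 and -1.12. Without knockout A or C, 5 and 7 passed down, with Gpx4 at -1.10 and -1.12, and without litter B Gpx4 had -1.21. The cause was not tested. Levels under 16 on 2 or more arrays limit 10 members: Lum, Lox, Loxl1, Fap, Twist1, Twist2, Nid2, Postn, Pdgfra and Thbs2.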
